A study of Mus musculus and Homo sapiens with 10 samples.

Results

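Gene deserts are long stretches of chromosome without a protein-coding gene. Here they were taken as the 100 kb bins of mouse chromosomes 1 to 19 (GRCm38), beyond the first 6 Mb of each, that lie more than 1 Mb from any RefSeq protein-coding gene and hold break ends in at least 1 library. This gave 586 of 23366 such bins with break ends, 2.51% of them, or 58.6 Mb in all. Every one of the 586 held break ends in all 6 libraries, so the requirement for break ends removed none, and the other 22780 bins serve as the comparison. The libraries come from mouse jejunal enterocytes, which line the villus and take up nutrients. They were sorted by surface Cd73, an ectonucleotidase (gene Nt5e), into negative, mid and high gates, with 2 libraries (M1 and M2) per gate. Ends of DNA double-strand breaks were tagged by in-suspension BLISS, in which adapters are ligated to blunted DNA ends and the sequence next to each adapter gives the place of a break. The labels give no treatment, genotype, strain, sex or age and do not say what M1 and M2 stand for, so the spread between them can be technical. Break ends on chromosomes 1 to 19, X and Y numbered 13043514 and 12585228 in the Cd73 negative libraries, 4757961 and 5160171 in the mid ones, and 1522615 and 1272771 in high.

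Deserts often flank genes of development, cell adhesion and the nervous system. Some carry distant enhancers of those genes. In many cell types such regions replicate late and lie in compact, silent chromatin, whereas breaks mapped in unperturbed cells tend to gather at transcribed genes and their promoters. In the villus, Cd73 is known to mark enterocytes near the tip, so that the gates stand roughly for positions along the villus.

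The labelled cell type was looked at through gene bodies, where break ends do not measure expression. With the mean of all bins set to 1, the bodies of 11 enterocyte genes (among them Vil1, Alpi and Sis) had densities between 1.58 and 1.97 over the 6 libraries and those of 5 lymphocyte genes between 0.811 and 1.20. Goblet genes were between 0.483 and 0.674, Paneth genes between 0.378 and 1.07, and tuft genes between 0.931 and 1.11. Enteroendocrine and stromal genes were between 1.69 and 1.98 and between 1.18 and 1.62. No gene of these lists was without break ends.

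Promoter sequences are shown first, since desert and other promoters differ in CpG and in break ends. RefSeq (GRCm38.p6) gives promoter windows for 35 non-coding genes that start in the desert bins, 37 windows of 300 bases that run from 250 before to 50 after a gene's start. The first 250 bases of 3 windows are shown, 5′ to 3′ on the gene's strand, with CpG dinucleotides in capitals. The first pair are the desert promoters with most break ends over all libraries. They were ranked among 29 of the 37 windows, those on chromosomes from which sequences are printed. The last, Pcdh17, had most break ends among 10 windows of 8 genes that flank the longest deserts. Not all flanking genes were among those 8. Pcdh17 encodes a protocadherin, a cell adhesion molecule of neurons. All 3 windows were picked by their break ends and are given as a description. They lie at chr3:48546166-48546415 (plus strand, 0 CpG, 46.0% G and C), chr1:113101919-113102168 (minus strand, 1 CpG, 36.0%) and chr14:84443313-84443562 (plus strand, 21 CpG, 64.8%).
Gm46835: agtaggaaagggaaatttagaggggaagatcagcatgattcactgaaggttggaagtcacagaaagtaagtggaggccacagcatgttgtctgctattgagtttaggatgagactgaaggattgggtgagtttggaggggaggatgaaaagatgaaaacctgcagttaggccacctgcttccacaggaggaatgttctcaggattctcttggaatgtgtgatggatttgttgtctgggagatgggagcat
Gm41932: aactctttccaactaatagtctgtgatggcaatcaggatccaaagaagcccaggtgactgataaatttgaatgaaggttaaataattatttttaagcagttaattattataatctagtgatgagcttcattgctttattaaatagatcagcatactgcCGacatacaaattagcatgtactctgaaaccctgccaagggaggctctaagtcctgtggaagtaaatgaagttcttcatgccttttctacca
Pcdh17: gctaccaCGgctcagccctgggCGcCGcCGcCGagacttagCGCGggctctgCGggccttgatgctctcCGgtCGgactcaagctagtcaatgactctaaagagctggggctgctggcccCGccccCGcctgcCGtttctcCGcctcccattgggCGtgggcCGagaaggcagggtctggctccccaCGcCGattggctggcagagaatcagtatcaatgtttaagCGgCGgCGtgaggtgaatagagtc

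The window of Gm46835, a non-coding gene model in the desert between Pabpc4l and the protocadherin gene Pcdh18, held 2 and 3 break ends in the negative libraries, 3 and 0 in mid and 1 and 0 in high. Gm41932, a gene model in the desert between Dsel and Cntnap5a, had 3 and 1, 0 and 4, and 0 and 0. The Pcdh17 window, over 1 Mb from the nearest desert bin, had 18 and 44, 6 and 11, and 2 and 2. Of the 37 desert windows 8 held 0 break ends in all libraries.

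The promoters of non-coding genes in deserts held too few break ends to be told from the deserts as a whole. All 37 windows together held 49 and 33 break ends in Cd73 negative, 19 and 14 in mid cells, and 6 and 9 in high libraries. Relative to the mean of all bins, this was 0.829 (95% Poisson interval 0.613 to 1.10) and 0.578 (0.398 to 0.812) in negative, where the deserts as a whole were at 0.639 and 0.638 (0.684 and 0.653 in mid cells, and 0.679 and 0.721 in high). In mid they were at 0.881 (0.531 to 1.38) and 0.599 (0.327 to 1.0), and in high at 0.869 (0.319 to 1.89) and 1.56 (0.714 to 2.96). In each library the interval takes in the value of all deserts, though such wide intervals do not show that the values are equal. Negative M1, mid M1 and both high libraries were above the deserts as a whole, and negative M2 and mid M2 below. The intervals cover counting error only. By contrast 11023 promoter windows of lncRNA genes elsewhere had 2.55 and 2.85 in negative, 2.21 and 2.64 in mid cells, and 2.19 and 2.01 in high. Promoters of protein-coding genes with 20 or more CpG (7229 windows) had 12.9 and 14.8, 9.72 and 13.0, and 9.76 and 8.30. Those with under 5 CpG (5357 windows) had only 1.28 and 1.26, 1.14 and 1.20, and 1.17 and 1.17.

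The desert promoters were poor in CpG, with a median of 2 per window against 4 for lncRNA elsewhere, 14 for protein-coding genes and 7 over all 30491 windows. Their median content of G and C was 40.0%, against 53.0%. The letters TATAAA, searched on both strands, occurred in 15 of 37 desert windows (40.5%) in 28.0% of protein-coding windows with under 5 CpG (median 2 CpG, 44.3% G and C) and in 13.7% of all windows, which is a match of letters and not a site.

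**Figure D1:**
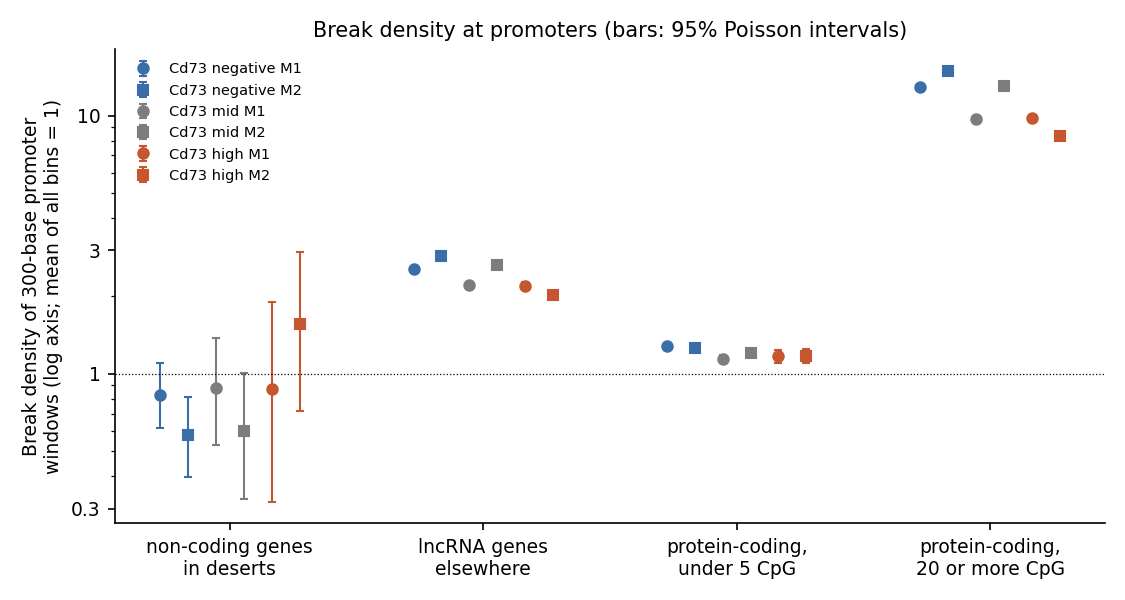
Break density of 300-base promoter windows relative to the mean of all 100 kb bins (log axis), for 4 classes of promoter; each point is a library, coloured by Cd73 gate, with circles for M1 and squares for M2, and bars are 95% Poisson intervals. The desert windows sit between 0.578 and 1.56, protein-coding promoters with 20 or more CpG between 8.30 and 14.8.

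The first comparison set the deserts against all other bins within each library. Deserts held 1.60% of the break ends of these bins in both Cd73 negative libraries, 1.72% and 1.64% in mid cells, and 1.70% and 1.81% in high, for 2.51% of the bins. An average desert bin held 340 and 328 break ends in negative, 133 and 138 in mid cells, and 42.2 and 37.5 in high, where an average other bin held 538 and 519, 196 and 213, and 62.7 and 52.3. The ratio of the 2 means was 0.633 and 0.632 in negative (0.633 ± 0.000642, SD, n = 2), 0.678 and 0.647 in mid (0.663 ± 0.0220) and 0.673 and 0.716 in high (0.695 ± 0.0301). All 6 libraries thus had fewer break ends in deserts, by 28.4% to 36.8%. Base composition, repeats and mappability of the bins were not analysed, so their part in this lower count was not tested. Of the 586 desert bins, 553 were below the mean of all bins in every library and 0 were above it in every library. Of the other bins 40.8% were below it in every library. The ratio is a share of each library and not a number of breaks per cell; the labels give no number of cells per library, so fewer cells and fewer breaks per cell cannot be told apart.

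Both negative libraries had a lower ratio of means than all 4 mid and high libraries, while mid and high overlapped. Depth moved with the gate, since the negative libraries are the deepest. With all libraries thinned to 1272771 break ends the ratio was 0.642 and 0.635 in negative, 0.679 and 0.647 in mid cells, and 0.673 and 0.716 in high, and the order was kept. With each position counted once it was 0.677 and 0.684, 0.694 and 0.671, and 0.681 and 0.721, and the 3 gates overlapped. With both changes together it was 0.652 and 0.649, 0.685 and 0.656, and 0.681 and 0.721, and the negative libraries were again lowest. With all break ends but medians in place of means it was 0.682 and 0.724, 0.707 and 0.715, and 0.700 and 0.760. By medians the 3 gates overlapped.

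**Figure D2:**
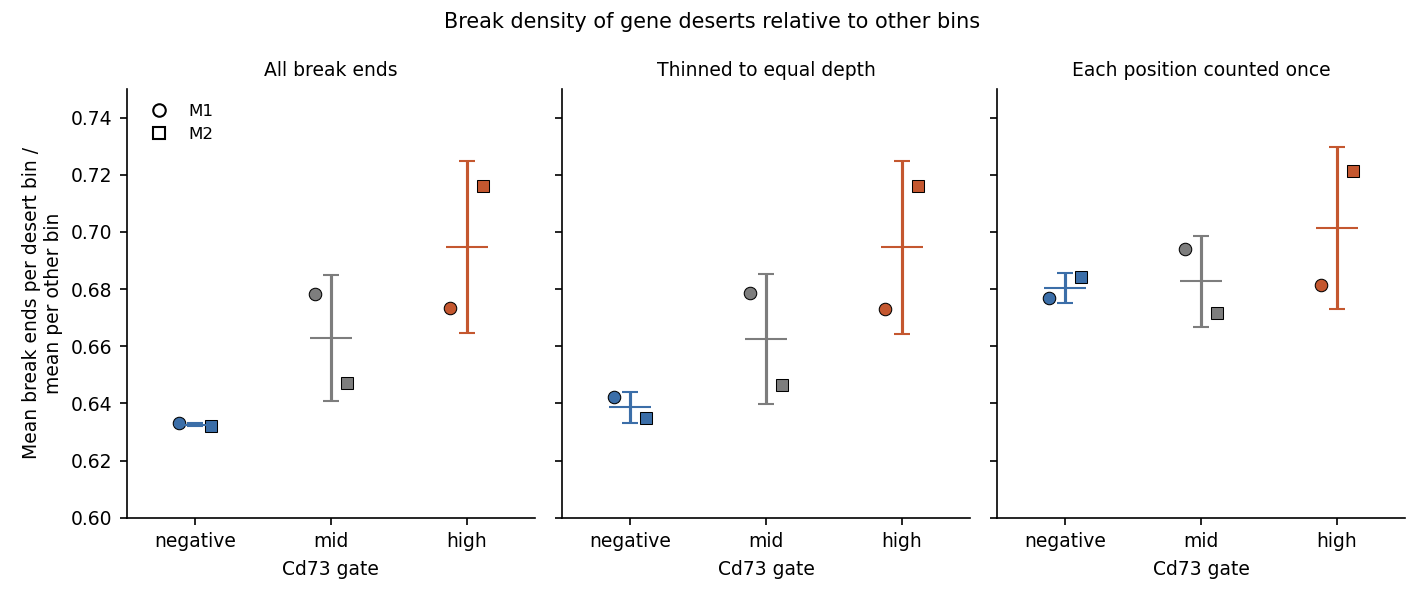
Mean break ends per desert bin divided by the mean per other bin (axis from 0.60) in each library, by Cd73 gate; circles are M1, squares M2, bars the mean and SD of 2 libraries. Negative libraries lie lowest at 0.633 and 0.632 with all break ends, and the gates overlap once each position is counted once.

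Density was lower with distance from a gene and then level, which was followed over classes of bins by their gap to the nearest protein-coding gene. With the mean of all bins set to 1, bins overlapping a gene (15165) had 1.14 ± 0.0104 in negative, 1.12 ± 0.0150 in mid and 1.10 ± 0.00743 in high (SD, n = 2 each). Within 100 kb of a gene (2888 bins) the values were 0.830 ± 0.0241, 0.859 ± 0.0270 and 0.885 ± 0.00443. From 100 to 500 kb (3541 bins) they were 0.729 ± 0.0228, 0.765 ± 0.0324 and 0.798 ± 0.0133, and from 500 kb to 1 Mb (1186 bins) 0.667 ± 0.00662, 0.702 ± 0.0190 and 0.747 ± 0.0299. Inside the deserts it was little lower still: from 1 to 1.5 Mb (443 bins) the values were 0.636 ± 0.000907, 0.668 ± 0.0209 and 0.698 ± 0.0291. From 1.5 to 2 Mb (129 bins) they were 0.644 ± 0.00251, 0.668 ± 0.0218 and 0.705 ± 0.0305. The 14 bins over 2 Mb away had 0.672 ± 0.0211, 0.700 ± 0.0498 and 0.726 ± 0.0453, and the farthest lies 2.21 Mb from a gene. The order of the gate means turned with distance, with negative highest over genes and lowest in each class away from them, although single negative and mid libraries overlapped over genes, within 500 kb and beyond 2 Mb.

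**Figure D3:**
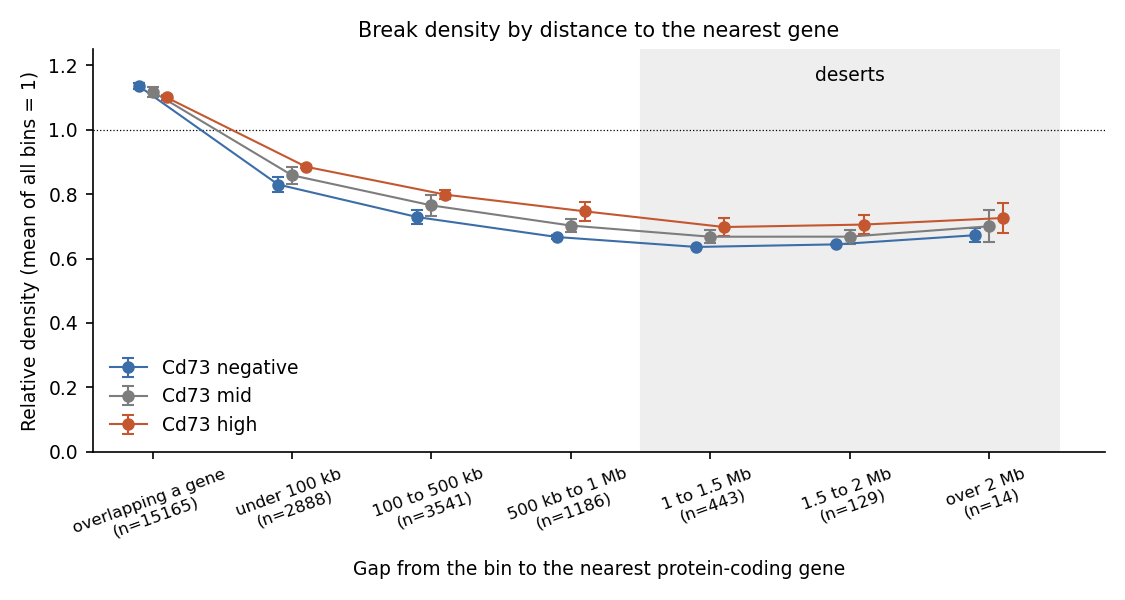
Relative density (mean of all bins = 1) by gap from a 100 kb bin to the nearest protein-coding gene, one line per Cd73 gate; points and bars are the mean and SD of 2 libraries, n under each class is its number of bins, and the grey area marks the deserts. Values run from 1.14 over genes to 0.636 at 1 to 1.5 Mb in negative and from 1.10 to 0.698 in high.

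The threshold itself marked no step. The 121 desert bins up to 100 kb beyond it had 0.644 in negative, 0.676 in mid and 0.710 in high. The 146 bins up to 100 kb short of it had 0.704, 0.759 and 0.872, but 1 bin among them, on chromosome 2 from 98600001 to 98700000 between Lrrc4c and Iftap, held 4219 and 4603 break ends in negative, 2037 and 2951 in mid cells, and 1370 and 1278 in high. That is 7.92 and 8.96, 10.5 and 14.0, and 22.0 and 24.6 times the mean bin. Without it these bins had 0.651, 0.680 and 0.717, and all bins from 500 kb to 1 Mb had 0.660, 0.693 and 0.728. The next bin on the side of Iftap opens a desert of 18 bins.

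Deserts were set beside bins of olfactory receptor genes and bins inside very long genes. Whether these genes are silent in the sorted cells was not measured, and the long genes were chosen by length alone. Bins that overlap an olfactory receptor gene (337), a family expressed chiefly in the nose, had 0.718 ± 0.00769 in negative, 0.740 ± 0.00217 in mid and 0.754 ± 0.0232 in high, above the deserts as a whole (0.639 ± 0.000637, 0.668 ± 0.0218 and 0.700 ± 0.0298). By the median bin they were close: olfactory receptor bins had 0.634 and 0.636 in negative, 0.685 and 0.669 in mid cells, and 0.692 and 0.732 in high, and desert bins 0.643 and 0.644, 0.685 and 0.655, and 0.675 and 0.732. Bins wholly inside genes of 500 kb or longer (1591) had 0.808 ± 0.0342, 0.841 ± 0.0423 and 0.870 ± 0.000207. By the mean, deserts were lower than both classes in every library, and the difference has no test across bins.

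Deserts were also more even than other bins. The SD between desert bins, after removal of the part that counting alone gives, was 15.7% and 15.1% of their mean in negative, 15.8% and 14.9% in mid cells, and 15.4% and 15.8% in high. Between other bins it was 45.4% to 57.9%. These mix bins over genes, near genes and away from genes, and 310 of them had a relative density under 0.05, against 0 desert bins. The spread was not taken for the bins 500 kb to 1 Mb from a gene alone. The middle 90% of desert bins, by the mean over libraries, ran from 0.537 to 0.811 and that of other bins from 0.525 to 1.70. Without bins that hold immunoglobulin gene segments, described next, the excess SD between desert bins was 11.4% to 12.5%. The median desert bin held 342.5 and 331 break ends in negative but 42 and 38 in high, where a count of 38 has a 95% Poisson interval of 26.9 to 52.2, so single bins are known far less well in the high gate.

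The order of the desert bins was shared between libraries to a degree that went with depth. Across the 586 bins Spearman's rho was 0.74 between the negative libraries, 0.55 between the mid and 0.34 between the high libraries. At equal depth rho was between 0.24 and 0.36 for all 15 pairs of libraries, against 0.81 to 0.87 across the other bins. The 2 ranges are not like for like. Beyond counting, desert bins differed by 14.9% to 15.8% of their mean and other bins by 45.4% to 57.9%. Counting alone gives 16.3% in an average desert bin of high M2. The part of this in the lower rho was not tested. Neighbouring desert bins resembled each other weakly (rho 0.26 over 524 pairs). These are descriptions across bins, which share their libraries.

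**Figure D4:**
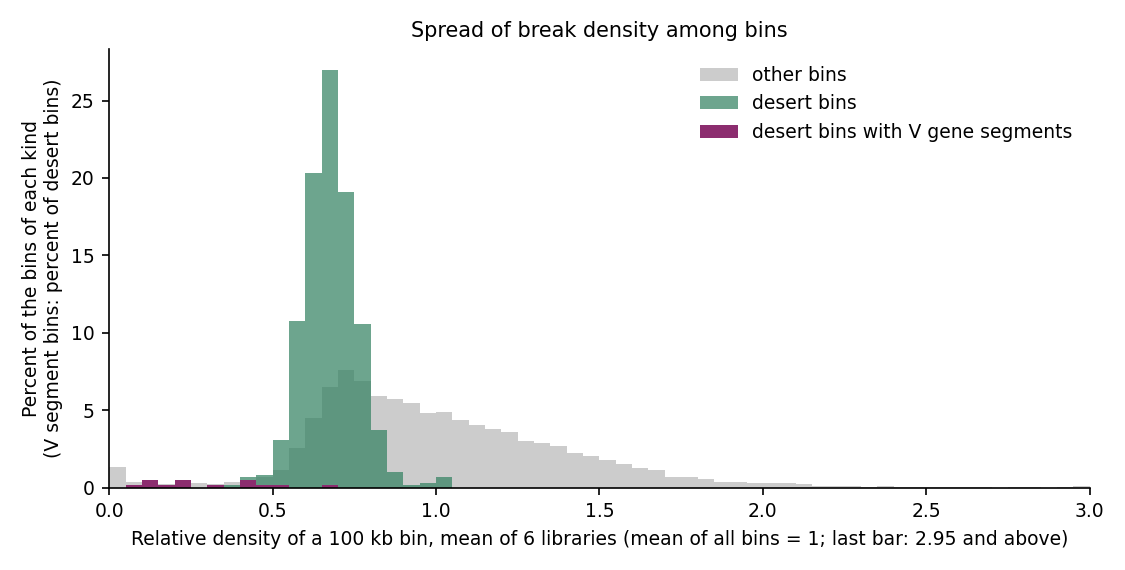
Relative density of 100 kb bins as the mean over 6 libraries (mean of all bins = 1), as the percent of 586 desert and of 22780 other bins in steps of 0.05; purple bars are the 15 desert bins with V gene segments. Desert bins form a narrow peak whose middle 90% runs from 0.537 to 0.811, and most purple bars lie to its left.

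The lowest desert bins are not deserts in the usual sense. Of the 586 bins, 15 carry immunoglobulin V gene segments, which encode the variable part of antibodies and join other segments by recombination in B cells, and which RefSeq lists apart from protein-coding genes. On chromosome 6 a whole run of 11 bins, 68600001 to 69700000, holds 35 kappa light chain V segments and 27 V segment pseudogenes. On chromosome 12 a run of 4 bins, 114600001 to 115000000, holds 21 heavy chain V segments and 19 pseudogenes. The label gene desert therefore does not hold for these 15 bins, and values without them are given where they matter.

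The kappa run had a relative density of 0.276 and 0.260 in negative, 0.271 and 0.292 in mid cells, and 0.311 and 0.324 in high. Its lowest bin, 69200001 to 69300000 with Igkv4-72 to Igkv4-69, held 43 and 24 break ends in negative, 10 and 14 in mid cells, and 7 and 3 in high, 0.0693 of the mean bin over all libraries. All 5 of the lowest desert bins belong to this run; the bins from 69000001, 69400001, 69100001 and 69600001 followed at 0.108, 0.119, 0.143 and 0.168. The heavy chain run had 0.332 and 0.337, 0.359 and 0.348, and 0.394 and 0.337. Of the 20 lowest desert bins, 13 carry V segments. V segments belong to families of related sequences, so the place of break ends there is uncertain, and whether reads map uniquely was not tested. Without the 15 bins the ratio of deserts to other bins was 0.642 and 0.641 in negative, 0.689 and 0.656 in mid cells, and 0.682 and 0.726 in high.

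At the upper end, 3 of the 5 densest desert bins lay in the run of 9 bins on chromosome 10, 15800001 to 16700000, between Nmbr, the neuromedin B receptor gene, and Cited2, which encodes a transcriptional coregulator. The run as a whole had 0.829 ± 0.00640 in negative, 0.870 ± 0.0291 in mid and 0.900 ± 0.0951 in high (n = 2 each), the highest of 62 runs. Its bin nearest to Cited2, 16600001 to 16700000, held 567 and 547 break ends in negative, 206 and 229 in mid cells, and 60 and 48 in high, or 1.06 and 1.06, 1.06 and 1.09, and 0.965 and 0.924 times the mean bin. The bins from 16500001 and 16000001 were at 1.01 and 1.0 over all libraries. In these bins the break ends were spread out, as the densest 1 kb held 3.08%, 2.86% and 3.31%, and no RefSeq gene lies in them.

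The bin that was densest with all break ends counted held many of them in a narrow window. On chromosome 1, 48800001 to 48900000, between Slc39a10, a zinc transporter gene, and Tmeff2, a membrane protein gene, there were 436 and 509 break ends in negative, 188 and 223 in mid cells, and 80 and 61 in high. The relative density was 0.818 and 0.990, 0.968 and 1.06, and 1.29 and 1.17, highest in both high libraries. A window of 1 kb, 48881001 to 48882000, held 120 and 136 of these in negative, 57 and 82 in mid cells, and 33 and 32 in high, which is 27.5% and 26.7%, 30.3% and 36.8%, and 41.3% and 52.5% of the bin. Outside the window the bin was at 0.599 and 0.733, 0.681 and 0.676, and 0.763 and 0.564, within the range of other deserts, and the gates overlapped. With each position counted once the bin was at 0.853, below the other 4 of the densest bins (1.05, 1.04, 1.02 and 1.0). The fifth of the densest bins, on chromosome 14 from 81800001, lay at 0.976 in the run between Olfm4 and Pcdh17.

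The 586 bins form 62 runs of neighbouring bins, of 8.5 bins in the median, with 3 runs of a single bin. Chromosome 14 is richest in deserts, with 68 of its 1181 bins (5.76%), followed by chromosome 8 (55 of 1231) and chromosome 1 (77 of 1894). Chromosome 9 has 2 desert bins and chromosome 19 has 0. Relative to the other bins of the same chromosome, deserts were at 0.548 on chromosome 6, which carries the kappa run, and at 0.608 to 0.740 on the 17 others.

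The 6 longest runs, the fifth being tied, hold 19 to 25 bins. The longest, 25 bins on chromosome 14 from 89500001 to 92000000, lies between the protocadherin genes Pcdh20 and Pcdh9 and had 0.643 and 0.654 in negative, 0.710 and 0.646 in mid cells, and 0.677 and 0.692 in high. The second, 24 bins on chromosome 18 from 26800001 to 29200000 between the RNA-binding protein gene Celf4 and the lipid kinase gene Pik3c3, had 0.663 and 0.643, 0.726 and 0.646, and 0.733 and 0.759. Both were below the mean bin in every library. High and mid libraries overlapped in the first and not in the second, where high lay above.

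A run of 23 bins on chromosome 14, 81100001 to 83400000, lies between Olfm4, a gene of intestinal crypt cells, and Pcdh17, and had 0.671 and 0.677 in negative, 0.712 and 0.669 in mid cells, and 0.732 and 0.754 in high. The run of 22 bins on chromosome 1 from 101500001 to 103700000, between Cntnap5b, a neural adhesion gene, and the cadherin gene Cdh20, had 0.619 and 0.615, 0.678 and 0.630, and 0.616 and 0.747. Here 1 high library was near the lowest value and the other was the highest. The runs of 19 bins lie on chromosome 1 from 48000001 to 49900000 (Slc39a10 to Tmeff2; 0.631 ± 0.0195, 0.677 ± 0.0219 and 0.735 ± 0.0654) and on chromosome 8 from 50600001 to 52500000. The last, between the teneurin gene Tenm3 and the lysosomal enzyme gene Aga, had 0.650 ± 0.00507, 0.667 ± 0.0351 and 0.734 ± 0.0358 (SD, n = 2).

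For 61 of the 62 runs the density was below the mean bin in every library. Among the 60 runs without V segments the mean over libraries ran from 0.570 (chromosome 6, 19900001 to 20200000, between Ankrd7 and Kcnd2) to 0.866 (the run next to Cited2).

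**Figure D5:**
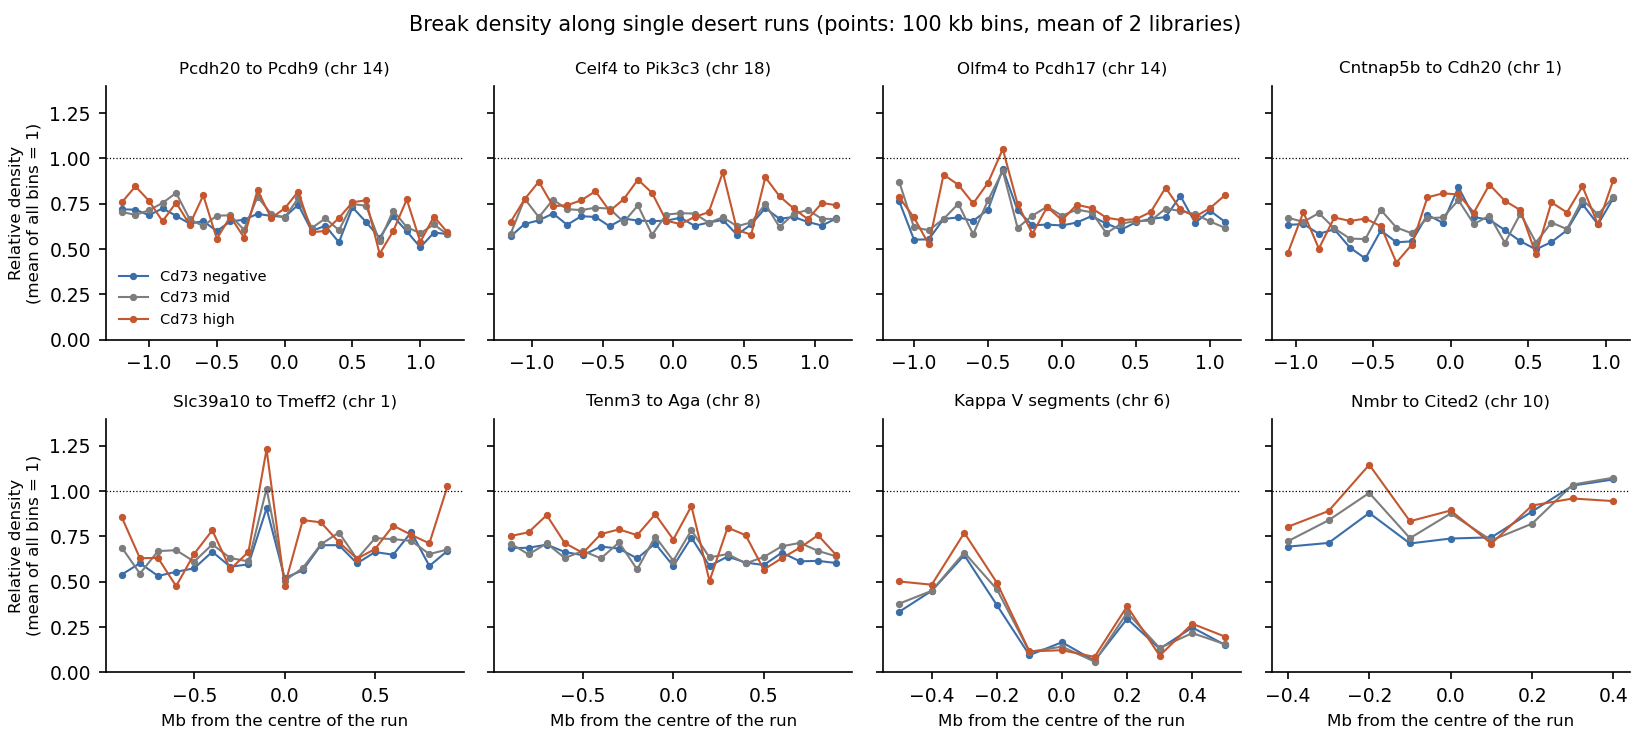
Relative density of each 100 kb bin (mean of 2 libraries per Cd73 gate; mean of all bins = 1, dotted) along the 6 longest desert runs, the kappa V segment run and the run next to Cited2, against distance from the centre of the run in Mb. The kappa run reaches 0.0693 over all libraries at its lowest bin, the Slc39a10 to Tmeff2 run has a single high bin of 1.05, and the run next to Cited2 has the highest mean, 0.866.

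Deserts without a protein-coding gene are not without genes. They overlap 312 RefSeq genes, among them 126 pseudogenes, 51 lncRNA genes, 13 small nuclear and 13 small nucleolar RNA genes and 1 miRNA gene beside the V segments, while 374 of the 586 bins hold no RefSeq gene at all. Apart from V segments, the content made little difference as the classes were taken: bins with an lncRNA gene (73) had 0.655 ± 0.00961 in negative, 0.682 ± 0.0201 in mid and 0.713 ± 0.0380 in high. These include 1 bin of the kappa run and 1 of the heavy chain run, which carry V segments, and the next classes hold no V segment bin. Bins with a pseudogene but no lncRNA gene or V segment (108) had 0.637 ± 0.000193, 0.671 ± 0.0249 and 0.705 ± 0.0435, and bins with no RefSeq gene 0.648 ± 0.00161, 0.678 ± 0.0221 and 0.708 ± 0.0277. In mid and high these differ by less than the spread between libraries, and in negative only the bins with a pseudogene were lower than those with no gene by more than that spread.

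Next, each desert bin was compared between the gates in a fit over all 25093 bins of chromosomes 1 to 19, X and Y that passed the filter on low counts, which all 586 desert bins did. Between Cd73 high and negative cells no desert bin passed the test: 0 of 586 had an adjusted p under 0.05 (quasi-likelihood test of edgeR, adjusted after Benjamini and Hochberg; smallest adjusted p = 0.185), against 0.0279% of all bins. At an unadjusted p under 0.05 there were 54 desert bins by edgeR (10.3% of all bins had such a p), and 31 by DESeq2 (6.86% of all bins), which also called 0. Of the 54, 49 were higher in Cd73 high (8.36% of deserts; 5.29% of all bins) and 5 lower (0.853%; 5.04%). The median log2 fold change of desert bins was 0.11, with 414 of 586 above 0, against a median of 0.007 and 51.4% above 0 over all bins tested. Both high libraries were above both negative ones, scaled to depth, for 206 desert bins (35.2%, against 23.1% of all bins) and below them for 59 (10.1%, against 22.7%). These medians and counts describe the list and are no test of it. The negative libraries are 8.27 to 10.2 times as deep as the high ones, and the part of depth in the shift was not tested beyond thinning. At full depth with each position counted once the median was 0.04, with 344 of 586 above 0. Thinned to equal depth it was 0.09, with 374 of 582 above 0, and thinned with each position counted once 0.09, with 370 of 582. Without Cd73 high M2 it was 0.06, with 353 of 586.

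Between Cd73 mid and negative again 0 of 586 desert bins passed (smallest adjusted p = 0.728 by edgeR), against 0.00797% of all bins, with 28 at an unadjusted p under 0.05 by edgeR (6.2% of all bins) and 3 by DESeq2 (1.82% of all bins). All 28 were higher in mid (4.78%; 3.52% of all bins), and 0 were lower (2.68% of all bins). Both mid libraries were above both negative ones for 144 desert bins (19.3% of all bins) and below them for 49 (17.6%). The median log2 fold change was 0.05, with 397 of 586 above 0, against 0.0019 and 50.5% over all bins. It was 0.0053 at full depth with each position counted once, 0.04 thinned to equal depth and 0.03 with both. It was 0.03 without negative M1 and 0.02 without mid M1. Between Cd73 high and mid 0 of 586 passed (smallest adjusted p = 0.989 by edgeR), against 0.0% of all bins, with 35 at an unadjusted p under 0.05 by edgeR (4.72% of all bins), 24 higher in high (4.10%; 2.67% of all bins) and 11 lower (1.88%; 2.05%), and 25 by DESeq2 (2.81% of all bins). Both high libraries were above both mid ones for 144 desert bins (17.4% of all bins) and below them for 73 (16.8%). The median was 0.06, with 368 of 586 above 0, against 0.0011 and 50.2%, and 0.02 without high M2. The 3 comparisons share libraries, so they do not bear on each other independently.

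The shift of the deserts had its like in other classes of bins, both away from genes and over very long or olfactory receptor genes. In the comparison of high with negative, bins 500 kb to 1 Mb from a gene had a median log2 fold change of 0.11 (858 of 1183 above 0). Those 100 to 500 kb away had 0.11 (2521 of 3519), and those under 100 kb away 0.075 (1889 of 2835). Bins inside genes of 500 kb or longer had 0.09 (1100 of 1591) and olfactory receptor bins 0.06 (212 of 337). Bins overlapping a gene had -0.05, with 6162 of 14956 above 0. Within the deserts, bins with V segments had 0.22 (12 of 15), and without them the median stayed at 0.11. The differences between these classes were not tested.

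Break ends piled up less at single positions in deserts. Of the break ends in deserts, those that shared their position with another were 17.8% and 17.4% in negative, 9.63% and 11.7% in mid cells, and 4.57% and 5.22% in high, against 25.8% and 26.6%, 12.9% and 16.8%, and 6.38% and 6.41% in other bins. At equal depth the desert values were 2.76% and 2.43% in negative, 3.18% and 3.60% in mid cells, and 3.84% and 5.22% in high. Here the 3 gates did not overlap, with negative lowest and high highest. High M2, the shallowest library, kept all its break ends in the thinning, and the negative libraries lost most. The part of this unequal thinning in the order was not tested. In other bins the values at equal depth were 5.30% and 6.02%, 4.69% and 6.07%, and 5.59% and 6.41%, and all 3 gates overlapped. The most break ends at any desert position were 38 and 49 in negative, 18 and 29 in mid cells, and 11 and 8 in high. Whether a count is of unique molecules or of reads is not stated, and the part of duplicate reads in these shares was not tested.

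Neighbouring break positions were spaced much as elsewhere at 1 bp. Over 1 to 10 and 11 to 20 bp, pairs were relatively fewer in negative and mid deserts at full depth. Pairs of positions 1 bp apart were 3.50 and 3.47 times as frequent in negative deserts as an average distance between 50 and 100 bp, and 3.67 and 3.54 times in other bins. In mid the values were 3.33 and 3.24 in deserts and 3.54 and 3.56 in other bins, and in high 3.65 and 3.0 against 3.17 and 3.60, where the libraries differed in order and the deserts gave 61 and 43 pairs. Over 1 to 10 bp the ratio was 1.16 and 1.18 in negative deserts against 1.30 and 1.29, and 1.23 and 1.22 in mid deserts against 1.33 and 1.35, lower in deserts in these 4 libraries at full depth. In high it was 1.47 and 1.61 against 1.41 and 1.5, from only 245 and 231 desert pairs, where the order was turned. At equal depth the order was mixed in mid as well: M1 had 1.48 in deserts against 1.41, and M2 1.27 against 1.45. With 1 bp pairs at equal depth, negative M1 (4.43 against 4.29) and mid M1 (5.13 against 3.73) were higher in deserts, and negative M2 (3.78 against 4.17) and mid M2 (3.25 against 3.81) lower.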

How the data were processed

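Tagged break ends were amplified by in vitro transcription and sequenced, per the labels' protocols. The submitters' processing notes name BWA and GRCm38; versions, filters and the treatment of duplicates are not stated in any source at hand. Each deposited file lists positions with a raw count of break ends, without strand. TK6 libraries were not analysed here. Counts were summed over 100 kb bins, and the gap from each bin to the nearest gene was taken from RefSeq (GRCm38.p6), of the same build, as were promoter sequences. Relative density divides by the mean of all bins of a library.

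The test per bin was the quasi-likelihood F test of edgeR 4.0.16 under R 4.3.3, with TMM scaling, the filterByExpr filter and all 6 libraries in 1 fit of 3 gates (common dispersion 0.0034), adjusted after Benjamini and Hochberg over 25093 bins. DESeq2 1.42.0 was an alternative. Simulated counts for high against negative (25093 bins, 50 changed per size) gave back 2%, 50%, 88% and 96% of bins changed 1.25, 1.5, 2 and 3-fold, and 5 false calls. Single values of 2 against 2 libraries cannot give an exact permutation p under 0.333, so none is given. Further alternatives were scaling by library size, no filter, positions counted once, thinning, positions over 100 break ends left out, other distances, the replicate number as a block, and leaving out each library. Leaving out V segment bins, and thinning with positions counted once, were chosen after seeing the data. Members and lists were chosen with earlier results of these data known. Named were called desert bins (there were 0), the 5 densest and 5 sparsest bins, and the 5 longest runs with ties; other bins and runs were named after their values were seen. Other software was matplotlib 3.10.9, scipy 1.17.1, pandas 2.3.3, numpy 2.4.6 and Python 3.11.15.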

Additional observations from a re-analysis of the deposited data

How the results depend on the processing

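No desert bin passed in any of the 54 combinations of comparison and setting run, and the median log2 fold change of desert bins was above that of all bins in each of the 54. With each position counted once the medians were 0.0399 (high against negative) and 0.0053 (mid against negative). With the replicate number as a block 0 desert bins passed and the medians were 0.11, 0.05 and 0.06. Same-numbered libraries deviated together in mid and negative (r = 0.32), and r was 0.01 for high and mid and -0.01 for high and negative. The high libraries are shallow, so a low r with them cannot decide whether the numbers are pairs. The main fit did not take the numbers as pairs. With 2 Mb as the distance (14 bins) the medians were 0.06, 0.04 and 0.0042. Over all bins, 7 passed for high against negative, 4 with positions counted once, 3 thinned, 2 with both, 11 with the block and 0 to 17 with a library left out; for mid against negative 2 passed and for high against mid 0, with 0 to 3 under the alternatives of each. Leaving out each library in turn gave medians of 0.06 to 0.14 (high against negative), 0.02 to 0.06 (mid against negative) and 0.02 to 0.09 (high against mid). The ratio of deserts to other bins in negative was 0.680 with positions counted once, 0.639 thinned, 0.651 with both, 0.633 without positions over 100 break ends, 0.703 as a ratio of medians, 0.639 and 0.672 with 500 kb and 2 Mb as the distance, and 0.642 without V segment bins. As a ratio of medians it was 0.711 in mid and 0.730 in high, and single libraries of the 3 gates overlapped. With 2 Mb it was 0.700 and 0.726. The cause of these moves was not tested. With the distance taken to any RefSeq gene 0 bins were left, so that alternative gave no value. Depth limits single bins, above all in the high gate.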

Other observations

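A desert of 5 bins on chromosome 12, 6400001 to 6900000, ends 1.08 Mb from Apob, the gene of the chief structural protein of the lipoproteins that enterocytes secrete, and was picked for that neighbour after its values were seen. It had a relative density of 0.558 ± 0.000148 (SD, n = 2) in Cd73 negative, 0.598 ± 0.0512 in mid and 0.647 ± 0.0599 in high libraries, and 0.601 over all libraries, below the median run (0.670). Another of 7 bins on chromosome 3, 71100001 to 71800000, has Sis, the sucrase-isomaltase gene of the enterocyte brush border, as its neighbour and was picked in the same way. It had 0.624 ± 0.00418 in negative, 0.647 ± 0.0063 in mid and 0.706 ± 0.0207 in high libraries.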
